A study of Mus musculus with 8 samples.

Results

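The antioxidant and glutathione enzymes are the proteins that remove superoxide, hydrogen peroxide and reactive organic molecules and that keep glutathione and thioredoxin in their reduced form. On the array used here they were taken by gene symbol. A row (1 spotted probe) was a member if its only annotated symbol named a glutathione S-transferase, glutathione peroxidase, peroxiredoxin, superoxide dismutase or glutaredoxin, began with Txn, or was Cat, Nqo1, Hmox1, Hmox2, Gclc, Gclm, Gsr, Gss or Nfe2l2. This gave 85 of the 33600 rows, for 65 genes, of which 15 had more than 1 row. The prefix Txn also takes in proteins that only share the thioredoxin fold, such as Txnl4a and Txnl4b, which belong to the splicing machinery, and Txndc5, a disulfide isomerase of the endoplasmic reticulum. They are described as a group of their own.

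The members were compared between 4 infarcted hearts and 4 sham control hearts, 1 array for each mouse. The infarcted mice had a permanent ligature around a left coronary artery, on its descending branch; the labels call this a model of post-ischaemic heart failure. The sham controls had the same opening of the chest and the same passage of a suture, which was left untied. All 8 mice were C57Bl/6 mice aged 8 to 10 weeks, and total RNA of the whole heart was used, so surviving muscle, scar, vessels and invading cells were measured together. How long after ligation the hearts were taken is not stated. Heart RNA (30 µg) carried the red dye, and RNA pooled from several tissues of adult mice carried the green.

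Oxygen metabolism in heart muscle, above all in the mitochondria, releases superoxide. Superoxide dismutases turn superoxide into hydrogen peroxide, which catalase, glutathione peroxidases and peroxiredoxins reduce to water. Glutathione peroxidases and glutaredoxins draw on glutathione, and peroxiredoxins on thioredoxin, both of which are restored with electrons from NADPH. Many of these genes are targets of the transcription factor NRF2, encoded by Nfe2l2, which binds the antioxidant response element. Ischaemia and the inflammation that follows are classical sources of oxidants in the heart.

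Each level below is a log2 signal divided, before the log, by the median of the block of spots it was printed in, and a level of 0 is that median. They describe a probe and are compared only for the same probe between arrays. Differences are log2 fold changes, infarcted minus sham control. The arrays held 21916 to 23655 values in the infarcted group and 19704 to 24819 in the sham control group. The deposited values trace back to the whole-number signal of a single channel. Which channel that is could not be settled, and the heart channel is assumed. Of 24 measured rows of cardiomyocyte markers, 18 had a level above 4. These levels do not tell the channels apart, since the tissues of the reference pool included heart. Genes known from other tissues of the reference pool were also well above the median spot, such as the testis gene Prm1 with a mean of 3.08 on the infarcted arrays and 4.70 on the sham control arrays, and the stomach gene Tff1 with 3.46 on infarcted and 4.57 on sham control arrays. Of 32 tested rows of such genes, 26 were lower on the infarcted arrays (median -0.41, and -0.35 after quantile normalization), and Prm2 passed the threshold at -1.69 (limma adjusted p = 0.0265) but not with quantile normalization (-1.34, adjusted p = 0.112) or loess (-1.33, adjusted p = 0.0575). Whether signal of the reference RNA enters the values was not tested, and this applies to every fold change below.

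No member row passed the test. Of 75 member rows with at least 3 values in each group, 0 passed a limma adjusted p of 0.05 with adjustment over all 20561 tested rows, of which 0.764% passed (0.0632% higher and 0.7% lower). At an unadjusted p under 0.05 there were 7 member rows, 1 higher and 6 lower in infarcted hearts. They were 9.33% of the member rows, against 12.5% of all rows (3.67% higher and 8.84% lower). The groups did not overlap in 4 member rows, all lower in infarcted hearts, or 5.33% of the members beside 6.33% of all rows. No member row had every infarcted array above every sham control array, where 2.79% of all rows did. The shares among the members were thus near or below those of the whole table.

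The median fold change of the 75 member rows was -0.19, beside -0.07 for all tested rows, and 54 of them (72%) were negative, beside 56.8% of all rows. After quantile normalization, which gives every array the same distribution of signals, the medians were -0.05 for the members and 0.01 for all rows, and 41 of the 75 member rows (54.7%) were negative. Beside them, 49.1% of all rows were negative. By that scaling 0 member rows passed limma's adjusted threshold (0.17% of all rows; 0.0243% higher and 0.146% lower). An unadjusted p under 0.05 was reached by 3, Hmox1, higher (4.98% of all rows were), and Sod1 and Gstm6, lower (5.13%; 10.1% in either direction). The infarcted arrays all lay above the sham control arrays in 1 member row, that of the thioredoxin-like protein Txnl1 at 0.27 with adjusted p = 0.693, named after its values were seen (3.75% of all rows) and all below in 0 (3.55%).

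**Figure D1:**
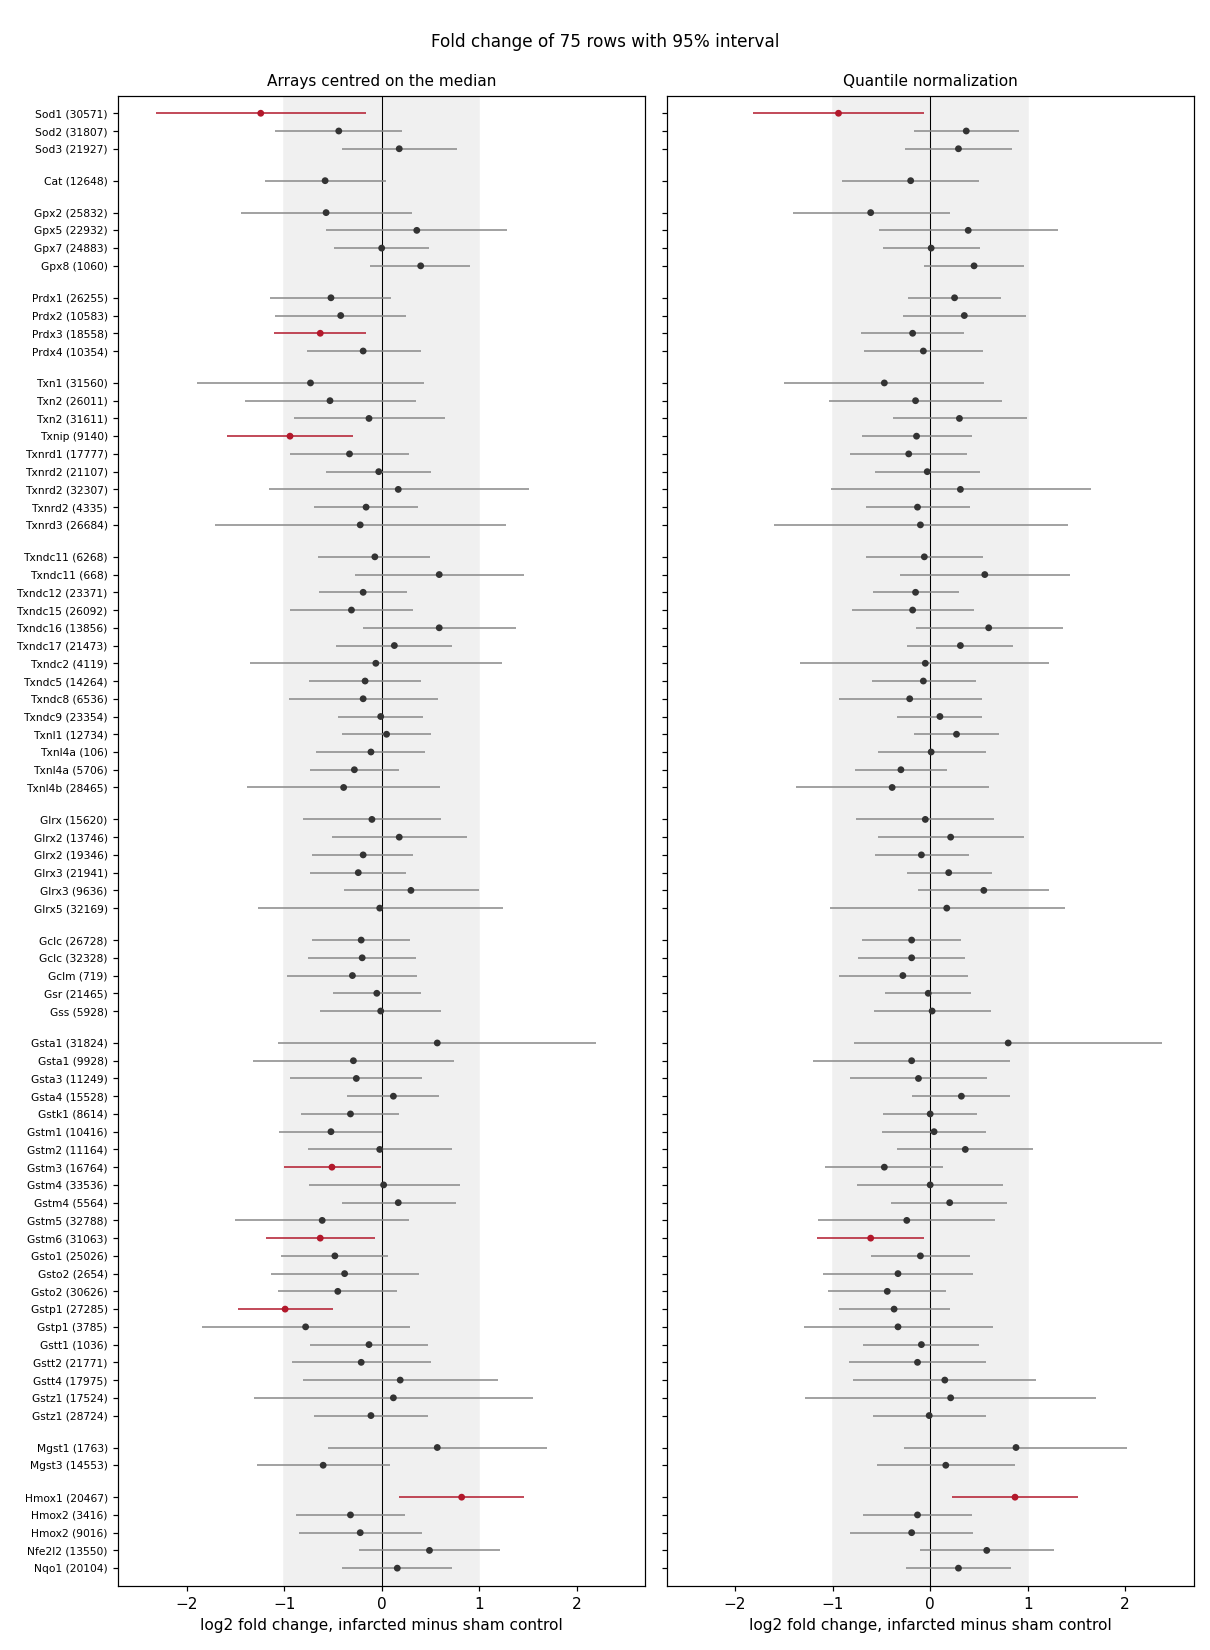
Log2 fold change (infarcted minus sham control, x axis) of each of the 75 tested member rows with its 95% interval from limma, grouped by role from superoxide dismutases at the top to the heme oxygenases, Nqo1 and Nfe2l2 at the bottom, with the row number in brackets. The left panel has arrays centred on the median and the right panel quantile normalization; red rows have an interval that excludes 0 before any adjustment (7 rows on the left), and the grey band runs from -1 to 1.

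The superoxide dismutases held the lowest fold change of all members. Sod1, the dismutase of the cytosol, had levels of 2.18, 2.43 and 2.37 on infarcted arrays 1, 3 and 4, with no value on infarcted array 2, and of 4.32, 4.23, 3.45 and 2.25 on sham control arrays 1 to 4. The 3 infarcted values lie close together, whereas the sham control values spread widely and sham control 4 falls among the infarcted arrays. The fold change was -1.24 ± 0.47 (SE; limma adjusted p = 0.322; 95% interval -2.31 to -0.16). Without sham control 4 it was -1.67 ± 0.31 and passed (adjusted p = 0.0242), and quantile normalization on the same 7 arrays gave -1.28 ± 0.29 (adjusted p = 0.0963).

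Sod2, the dismutase of the mitochondrial matrix, had levels of 4.52, 4.93, 5.03 and 4.98 in infarcted hearts and of 4.88, 5.99, 5.45 and 4.90 in sham control hearts. The groups overlap. Its fold change of -0.44 ± 0.29 (SE) turned to 0.37 after quantile normalization (adjusted p = 0.598 and 0.654). Sod3, the secreted dismutase of the extracellular space, averaged 1.84 ± 0.11 in infarcted hearts and 1.66 ± 0.47 in sham control hearts (SD, n = 4 each), a difference of 0.18 with a 95% interval of -0.41 to 0.77.

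Cat, the peroxisomal enzyme catalase, had levels of 3.57, 3.31, 3.34 and 2.56 in infarcted hearts and of 3.36, 4.06, 3.76 and 3.93 in sham control hearts. Infarcted 4 was the lowest of the 8 and infarcted 1 exceeded sham control 1. Its fold change was -0.58 ± 0.28 (SE; limma adjusted p = 0.436), and -0.20 after quantile normalization.

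Of the glutathione peroxidases, 4 of 7 rows could be tested. Gpx8, a peroxidase of the endoplasmic reticulum, was at 1.31, 1.02, 1.49 and 1.38 in infarcted hearts, against 0.58, 0.90, 1.28 and 0.85 in sham control hearts. Sham control 3 alone reached into the infarcted range, and the difference came to 0.40 ± 0.23 (SE; limma adjusted p = 0.532). Gpx2, known from the gut epithelium, and Gpx5, known from the epididymis, had fold changes of -0.57 and 0.36, and Gpx7 in its tested row 0.00. Gpx1, the abundant peroxidase of the cytosol and mitochondria, had no value on any array.

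The peroxiredoxins, thiol peroxidases that work with thioredoxin, were negative in all 4 tested rows with median centring (median -0.47) and in 2 of 4 after quantile normalization (median 0.09). Prdx3, the peroxiredoxin of the mitochondria, had levels of 3.62, 3.40, 3.73 and 3.49 in infarcted hearts and of 4.06, 4.46, 3.97 and 4.26 in sham control hearts. Every infarcted array lay below every sham control array. The fold change was -0.63 ± 0.21 (SE; limma adjusted p = 0.242), and with quantile normalization -0.18 (adjusted p = 0.846).

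Prdx1, of the cytosol, had levels of 4.42, 4.41, 4.57 and 5.13 in infarcted hearts and of 5.31, 5.46, 5.31 and 4.55 in sham control hearts. Infarcted 4 and sham control 4 each sat with the other group. Its fold change was -0.52 ± 0.28 (SE) and turned to 0.25 with quantile normalization (adjusted p = 0.49 and 0.746). Prdx2, abundant in red blood cells, went the same way with -0.42 and 0.35 (adjusted p = 0.63 and 0.724). Beside these values, the tested rows of the haemoglobin genes Hba-a1 and Hbb-bt had fold changes of -1.74 and -1.61 (adjusted p = 0.0505 and 0.17; -1.01 and -0.76 after quantile normalization), and the 5 tested rows of erythroid markers had a median of 0.15. Their part in the values of Prdx2 and of Cat, which red cells also hold, was not tested. Prdx4, of the endoplasmic reticulum, had -0.19 in its tested row.

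In the thioredoxin system 8 of 9 rows were negative with median centring (56.8% of all rows were), with a median of -0.22. After quantile normalization 7 of 9 were negative (49.1% of all rows), with a median of -0.13. Txnip, which binds thioredoxin and inhibits it, had the brightest member row, with levels of 4.51, 4.82, 4.90 and 4.69 in infarcted hearts and of 5.97, 6.31, 5.24 and 5.17 in sham control hearts. The groups did not overlap, with sham control 1 and 2 far above the rest. The fold change was -0.94 ± 0.29 (SE; limma adjusted p = 0.202; 95% interval -1.59 to -0.29), whereas quantile normalization left -0.14 (adjusted p = 0.888). The 432 tested rows with a mean level above 5 had a median fold change of -0.89 with median centring and -0.06 with quantile normalization, so Txnip stood close to other bright rows.

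Txn1, the cytosolic thioredoxin, had levels of 2.30, 2.10, 2.35 and 2.92 in infarcted hearts and of 4.34, 2.79, 3.83 and 1.62 in sham control hearts. The infarcted arrays were alike and the sham control arrays ran from the highest to the lowest of all 8. For Txn1 the fold change was -0.73 ± 0.52 (SE; limma adjusted p = 0.628), and -0.47 after quantile normalization. Without sham control 2 and 4, the 2 sham control arrays with the fewest values, it was -1.67 ± 0.31 and passed (adjusted p = 0.0164), and with quantile normalization on those 6 arrays it was -1.27 ± 0.30 and did not (adjusted p = 0.0647).

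Txn2, the mitochondrial thioredoxin, had fold changes of -0.53 and -0.13 in its 2 rows. Txnrd1, the reductase that recharges cytosolic thioredoxin, was at -0.33 (95% interval -0.94 to 0.28). Its mitochondrial counterpart Txnrd2 was at -0.16, -0.03 and 0.17 in 3 tested rows, and Txnrd3 at -0.22. None of these had an unadjusted p under 0.05. In Txnrd3, infarcted 1 was at -0.62 and the other infarcted arrays between 2.18 and 2.65, against 1.33 to 2.45 in sham control hearts.

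The 14 rows of thioredoxin-like and thioredoxin-domain proteins had a median fold change of -0.09 and a range of -0.39 to 0.59. An unadjusted p under 0.05 was reached by 0 of them. Some 95% intervals were wide, such as -1.35 to 1.23 for Txndc2 and -1.38 to 0.60 for Txnl4b. The ends of the range were Txnl4b at -0.39 and Txndc11 (row 668) and Txndc16 both at 0.59. Txndc16 had levels of 0.79, -0.04, 0.47 and 0.36 in infarcted hearts and of -1.11, 0.55, -0.23 and -0.01 in sham control hearts (limma adjusted p = 0.543). The other row of Txndc11 was at -0.07.

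The glutaredoxins, small enzymes that use glutathione to reduce protein disulfides, had 6 rows between -0.24 and 0.30. Glrx, of the cytosol, averaged a difference of -0.10 and Glrx5, which serves iron-sulphur cluster assembly in mitochondria, -0.02. Glrx2 and Glrx3 each had a positive and a negative row (0.18 and -0.19, 0.30 and -0.24).

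Glutathione is made by glutamate-cysteine ligase, with the catalytic subunit Gclc and the modifier Gclm, and by glutathione synthetase, Gss, and it is kept reduced by glutathione reductase, Gsr. Gsr had levels of 0.57, 0.36, 0.43 and 0.30 in infarcted hearts and of 0.33, 0.65, 0.55 and 0.31 in sham control hearts, and Gss of 0.66, 0.52, 0.44 and 0.25 in infarcted hearts and of 1.13, 0.61, 0.00 and 0.17 in sham control hearts. In both genes the groups overlapped widely. The fold change was -0.05 for Gsr (95% interval -0.50 to 0.40) and -0.01 for Gss (-0.63 to 0.61). Both rows of Gclc gave about the same value, -0.21 and -0.20, and Gclm gave -0.30 (95% interval -0.97 to 0.36). For these 5 rows the intervals stay within -1 and 1 on the log2 scale in either scaling.

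The glutathione S-transferases, which couple glutathione to reactive molecules, made up the largest group with 26 rows of 19 genes, 22 of them tested. They had a median of -0.27, with 16 rows negative, and of -0.10 after quantile normalization, with 13 negative. Several of these genes have close paralogs, and which of them a probe detects was not tested, since the probe sequences were not used here.

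Gstp1, the pi-class enzyme, had the lowest p of all member rows. In row 27285 its levels were 4.11, 3.67, 3.88 and 3.50 in infarcted hearts and 4.71, 4.91, 4.85 and 4.63 in sham control hearts. Every infarcted array lay below every sham control array, and the spread within each group was small (SD 0.26 in infarcted and 0.13 in sham control hearts, n = 4 each). The fold change of -0.99 ± 0.22 (SE) did not pass over all rows (limma adjusted p = 0.0767). In a new limma fit on only the 11159 rows above the median spot, adjusted over those rows, it did (adjusted p = 0.042). Quantile normalization of all rows left -0.37 ± 0.26 (adjusted p = 0.68). Among all 788 tested rows with a mean level from 4 to 5 the median fold change was -0.61 with median centring and 0.03 with quantile normalization. The other Gstp1 row, 3785, had 3.71, 3.47, 2.34 and 3.26 in infarcted hearts and 4.81, 3.76, 4.62 and 2.69 in sham control hearts, with the groups overlapping and a fold change of -0.78 ± 0.48 (SE; adjusted p = 0.565). Without sham control 2 and 4 that row stood at -1.52 and passed (adjusted p = 0.0489), but not with quantile normalization on those arrays (-0.91, adjusted p = 0.264).

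Among the mu class, Gstm6 had levels of -0.52, -0.48, 0.12 and -0.06 in infarcted hearts and of 0.66, 0.59, 0.33 and 0.00 in sham control hearts. Only infarcted 3 exceeded a sham control array, and the fold change was -0.63 ± 0.25 (SE; limma adjusted p = 0.336; -0.61 after quantile normalization). Gstm3, far below the median spot, had -2.20, -2.36, -2.42 and -2.30 in infarcted hearts against -1.37, -1.86, -1.98 and -2.05 in sham control hearts. The groups did not overlap, the difference came to -0.51 ± 0.22 (SE; adjusted p = 0.392), and the recovered signals of that spot were only 118 to 245. Gstm1, a bright row, was at -0.52 and at 0.04 after quantile normalization, with overlapping groups. Gstm2 was at -0.02, Gstm5 at -0.61 (-0.24 after quantile normalization) and the 2 rows of Gstm4 at 0.02 and 0.17.

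In the alpha class, Gsta3 was at -0.26 and Gsta4, which acts on lipid peroxidation products, at 0.12 (95% interval -0.36 to 0.59). Gsta1 had 1 row at 0.57 (95% interval -1.06 to 2.20) and 1 at -0.29. In the row at 0.57, sham control 4 was at -0.42 and the other sham control arrays between 1.82 and 3.46. Without sham control 4 that row turned to -0.25. The omega-class Gsto1, which also reduces dehydroascorbate, was at -0.48 (limma adjusted p = 0.467; -0.10 after quantile normalization), and Gstk1, of mitochondria and peroxisomes, at -0.32 with 0.00 after quantile normalization. Of the membrane-bound enzymes, Mgst1 had 3.31, 2.24, 3.88 and 4.44 in infarcted hearts and 3.19, 1.93, 3.72 and 2.75 in sham control hearts. Both groups were widely spread, only infarcted 3 and 4 exceeded every sham control array, and the fold change was 0.57 ± 0.50 (SE; 0.88 after quantile normalization). Mgst3 was at -0.60, and at 0.16 after quantile normalization.

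Hmox1 was the single member row higher in infarcted hearts at an unadjusted p under 0.05. It encodes the inducible heme oxygenase, which breaks down heme and is a classical stress-induced gene. Its levels were 0.84, 0.43, 1.24 and 1.01 in infarcted hearts and 0.05, 0.00, 0.64 and -0.45 in sham control hearts. Sham control 3 lay above infarcted 2, and no other sham control array reached the infarcted arrays. The fold change was 0.82 ± 0.29 (SE; unadjusted p = 0.0169, limma adjusted p = 0.263; 95% interval 0.18 to 1.46). It was 0.87 with quantile normalization and between 0.54 and 1.01 over all 19 alternatives, with adjusted p between 0.189 and 0.573. Rows of macrophage and monocyte markers, cells that can carry much Hmox1, were positive in 18 of 22 tested rows (median 0.47). Their mean level ran from 1.33 to 1.82 on the infarcted arrays, against 0.88 to 1.14 on the sham control arrays, and 0 of them passed singly (lowest adjusted p = 0.0512, for Gpnmb). Their part in the value of Hmox1 was not tested, and more such cells cannot be told apart from more Hmox1 RNA per cell.

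The constitutive heme oxygenase Hmox2 was at -0.32 and -0.22 in its 2 tested rows. Nfe2l2 had 2.05, 1.82, 1.70 and 1.64 in infarcted hearts and 0.45, 1.64, 1.96 and 1.21 in sham control hearts. Only infarcted 1 exceeded every sham control array, sham control 1 was far below the rest, and the fold change was 0.49 ± 0.32 (SE; limma adjusted p = 0.591). Nqo1, a quinone reductase and standard NRF2 target, had 2.02, 1.82, 2.38 and 2.16 in infarcted hearts and 1.51, 2.32, 2.17 and 1.77 in sham control hearts. The groups covered nearly the same range and the fold change was 0.16 (95% interval -0.41 to 0.72).

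**Figure D2:**
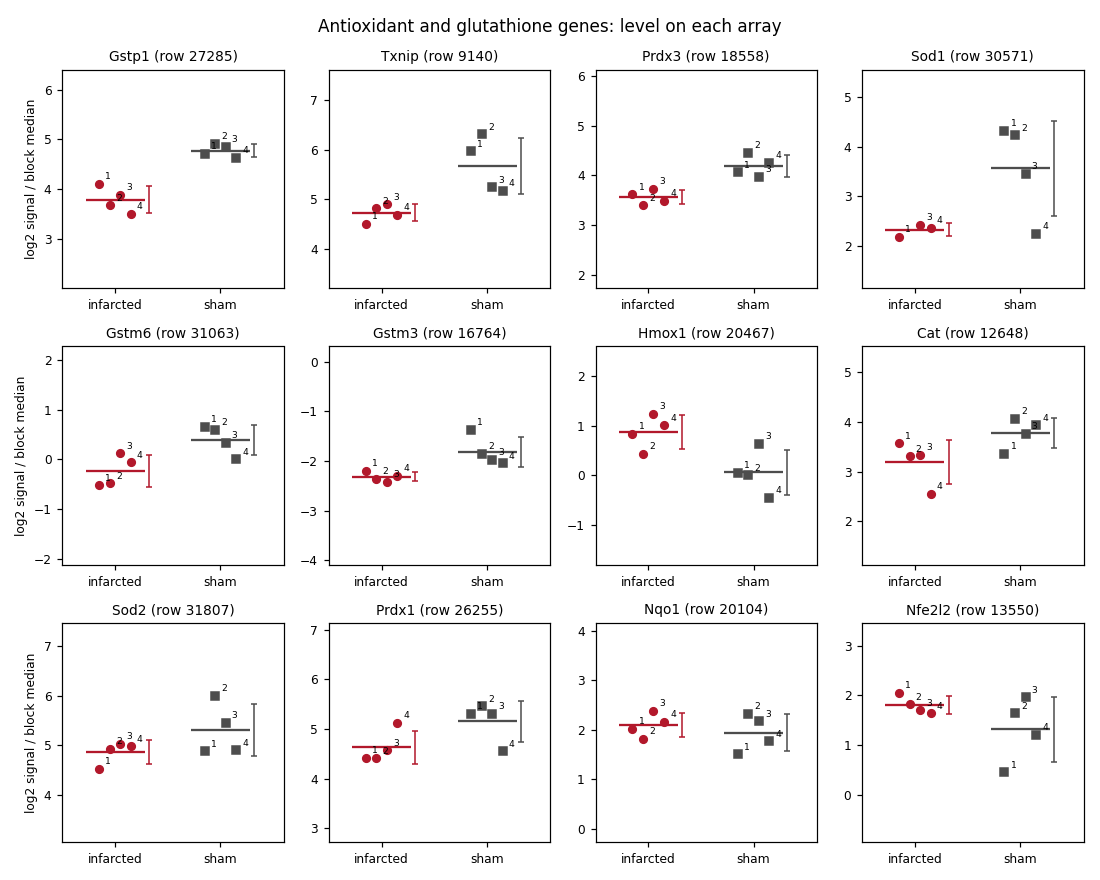
Level of 12 member rows on each array (y axis, log2 signal relative to the block median, the same span in every panel), with infarcted hearts as red circles and sham control hearts as grey squares; numbers are replicates, lines group means and bars the SD. The first 7 panels are the rows with an unadjusted p under 0.05, and the others were chosen by name; Gstp1, Txnip, Prdx3 and Gstm3 have groups that do not overlap.

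The antioxidant response element was looked for in the promoters of the members, since Nfe2l2 and several of its known targets were among them without a called change. The core TGACNNNGC, in either direction and with no other motif searched, was sought from 250 bases before to 50 bases after the start in RefSeq sequences of GRCm38.p6. Of the 65 member genes 57 had a window, 77 windows in all. The core stood in 11 of these windows (14.3%), beside 12.4% of all 32851 windows. The sequences around it are shown for 6 genes that are known NRF2 targets or, for Nfe2l2, the factor itself, read along the gene's strand with the core in capitals.
Prdx1 (chr4:116685452-116685488, plus strand): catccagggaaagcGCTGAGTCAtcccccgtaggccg
Txnrd1 (chr10:82859100-82859136, plus strand): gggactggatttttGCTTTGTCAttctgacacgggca
Gclm (chr3:122245409-122245445, plus strand): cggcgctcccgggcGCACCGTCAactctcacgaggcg
Gsta3 (chr1:21240450-21240486, plus strand): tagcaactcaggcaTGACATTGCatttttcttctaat
Mgst1 (chr6:138140457-138140493, plus strand): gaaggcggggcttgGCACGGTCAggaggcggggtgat
Nfe2l2 (chr2:75704881-75704913, minus strand): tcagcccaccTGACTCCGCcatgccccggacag
The core lay 133 bases before the start in Prdx1, 92 in Txnrd1 and 121 in Gsta3. The 12 tested rows of genes with a core had a median fold change of -0.22 and 9 of them were negative, and the 53 rows of genes with a window but no core had -0.19 and 39 negative. Nqo1, Hmox1 and Gclc were not among the genes with a core, and sequence outside the window was not searched. These medians therefore do not compare NRF2 targets with other genes. A match of these letters is a description of the promoter and not a bound site.

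Fold change among the members went with level. Across the 75 rows the Pearson correlation of mean level and fold change was -0.38, given as a description because the rows share the same 8 arrays. With quantile normalization it was 0.16. Of the 18 member rows with a level above 3, 17 were negative with a median of -0.52. The 2283 tested rows of that level had a median of -0.51, with 85.9% negative. After quantile normalization 8 of the 18 member rows were negative and the medians were 0.02 for these members and 0.04 for all rows of that level. The 57 member rows of level 3 or below had a median of -0.11, beside -0.03 for all such rows. The 99th percentile of the signals lay between 5.05 and 5.24 on the infarcted arrays and between 5.65 and 6.31 on the sham control arrays. Bright members, such as Txnip, Gstp1, Prdx1, Prdx2, Sod2 and Mgst3, had lower values with median centring, and so did bright rows in general. The direction of Prdx1, Prdx2, Sod2 and Mgst3 flipped with the scaling. Gstp1 (row 27285) lay below the median of rows of level 4 to 5 in either scaling (-0.99 beside -0.61, and -0.37 beside 0.03 after quantile normalization). The part of the shift of bright rows in the values of these members was not tested.

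**Figure D3:**
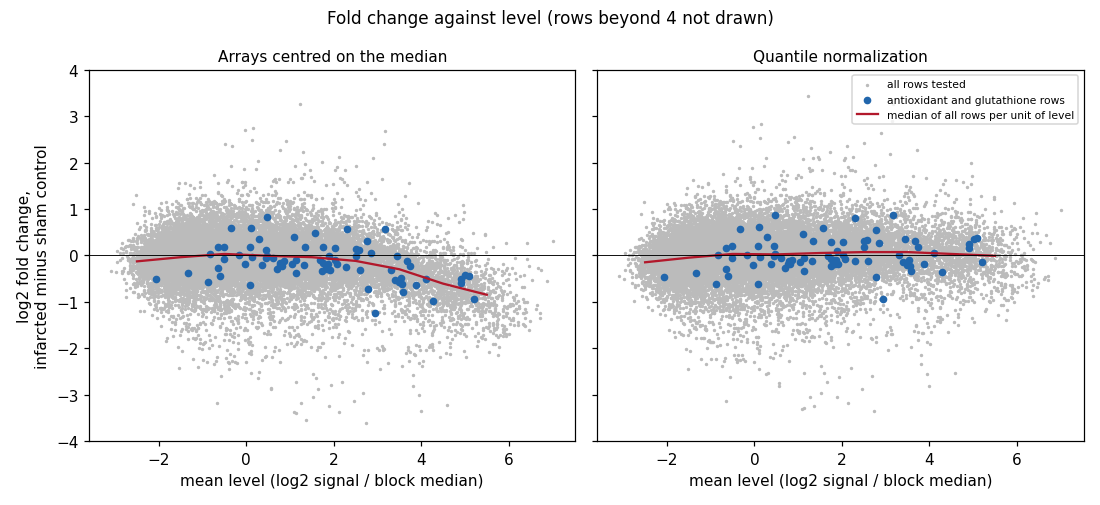
Log2 fold change (infarcted minus sham control, y axis) against mean level (log2 signal relative to the block median, x axis) for all 20561 tested rows in grey and the 75 member rows in blue, with median centring on the left and quantile normalization on the right. The red line is the median of all rows per unit of level: it bends down to the right of level 3 in the left panel, where most bright member rows are negative too, and stays near 0 in the right panel.

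The arrays limited what could be seen. The standard error of the member rows ran from 0.19 to 0.73 with a median of 0.28. For 39 of 75 rows (52%, beside 48.5% of all rows) the unadjusted 95% interval lay between -1 and 1 on the log2 scale, and for 38 this held with quantile normalization as well. For the other 36 rows, among them the 7 whose interval excluded 0, it reached or passed a bound. Sham control 4 had the lowest value of its group in 34 of 72 member rows with all 8 values, beside 43.3% of all such rows. In 4 of them, of Gstp1, Txn1, Gsta1 and Txnrd2, it was more than 1 below every other sham control array, beside 7.2% of all rows.

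Probes of the same gene allow a check within the array. Of 13 genes with at least 2 tested rows, 7 had fold changes of a single sign and 6 of both signs. Gclc, Gstp1, Gsto2, Hmox2, Txn2 and Txnl4a were negative in every tested row with median centring, and Gstm4 positive. With quantile normalization Txn2 (row 31611) turned to 0.30 and Txnl4a (row 106) to 0.01, while both rows of Glrx3 were positive (0.19 and 0.55). Gstp1 had the largest values among them. Without sham control 4 and with median centring, the positive rows of Gsta1, Gstz1 and Glrx2 turned to -0.25, -0.46 and -0.06. The other row of each gene tested above stayed negative, at -0.21, -0.22 and -0.28. Glrx3, Txndc11 and Txnrd2 kept both signs.

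The 10 member rows without a test were 4 with no value on any array, of Gpx1, Gsto2, Prdx4 and Txnrd2, and 6 with some values. Hmox2 (row 14616) had 3.52, 3.57 and 3.39 on infarcted arrays 2, 3 and 4 and 3.36 and 4.03 on sham control arrays 2 and 3. Gstz1 (row 23124), of phenylalanine and tyrosine breakdown, had -2.81, -2.62 and -2.50 on infarcted arrays 1, 3 and 4 and -3.06 and -2.38 on sham control arrays 1 and 3. Gpx6 and the second row of Gpx7 had values on infarcted arrays only (-2.58 and -2.04, and -1.08), and Gstp3 and Gstt3 each on 1 sham control array (-2.31 and -0.95). These spots were dim apart from Hmox2, and a missing value does not show a low level.

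Around the members, 7 lists of other redox genes held 105 tested rows of 123, of which 1 passed, and 15 had an unadjusted p under 0.05, 6 higher and 9 lower (14.3%, beside 12.5% of all rows). Their median fold change was -0.10, and 0.03 after quantile normalization. Fth1, the heavy chain of ferritin, which stores iron and is an NRF2 target, fell to 5.63, 5.64, 5.49 and 5.66 in infarcted hearts, against 7.11, 7.38 and 6.82 in sham control hearts 2, 3 and 4, with no value on sham control 1. The groups were far apart, with a fold change of -1.50 ± 0.24 (SE; limma adjusted p = 0.0338). The row was among the brightest, and with quantile normalization it stood at -0.74 (adjusted p = 0.342) and with loess against the mean array at -0.45 (adjusted p = 0.461). It passed without sham control 4 (adjusted p = 0.0143) but not without any other single array, infarcted 1 to 4 and sham control 1 to 3 (adjusted p from 0.0501 to 0.146). The other 23 tested rows of NRF2 control and targets included Maff at 0.74 (adjusted p = 0.412) and did not pass.

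Mt1, a metallothionein that binds zinc and copper, had 4.34, 4.01, 4.54 and 4.12 in infarcted hearts and 6.49, 5.32, 5.83 and 5.35 in sham control hearts. The groups did not overlap, and the fold change of -1.49 ± 0.30 (SE) was short of the threshold (limma adjusted p = 0.0536; -0.80 after quantile normalization, adjusted p = 0.445). Without sham control 4 it passed (-1.62, adjusted p = 0.0229), while the other Mt1 row was at -0.19 with overlapping groups. Cp, ceruloplasmin, a ferroxidase of the blood, had 1.18, 1.10, 1.51 and 1.64 in infarcted hearts against 0.19, 0.99, 0.31 and 0.08 in sham control hearts, 0.96 ± 0.26 (SE; adjusted p = 0.146) and 1.02 after quantile normalization. Every infarcted array was above every sham control array in this row and in both other rows of Cp, at 0.66 and 0.89. The row at 0.89 had no value on sham control 1. Of all tested rows, 2.79% had the groups in this order. Of the 12 tested rows of this list, 3 were higher at an unadjusted p under 0.05 (3.67% of all rows were), all of them rows of Cp. Lower at that threshold were 2 (8.84% of all rows).

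Of the 12 tested rows of genes that supply NADPH, 0 passed. Idh2, the mitochondrial isocitrate dehydrogenase, had 2.70, 5.17, 5.59 and 5.30 in infarcted hearts and 7.03, 6.94, 7.13 and 6.21 in sham control hearts, -2.14 ± 0.57 (SE; limma adjusted p = 0.138). With quantile normalization it stood at -1.40 (adjusted p = 0.486) and with loess at -1.17 (adjusted p = 0.406). Infarcted 1 was far below the others. Me1, the cytosolic malic enzyme, had 2.75, 2.70, 2.46 and 2.70 in infarcted hearts and 3.68, 3.42, 3.63 and 3.38 in sham control hearts, -0.88 ± 0.20 (SE; adjusted p = 0.0868; -0.62 after quantile normalization), and its groups did not overlap either.

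The remaining lists had no row past the threshold. Among producers of superoxide and hydrogen peroxide (13 tested rows, median 0.01), Ncf1, a subunit of the phagocyte NADPH oxidase, had 0.48, 0.15, 0.61 and 0.25 in infarcted hearts and -0.47, -0.74, 0.26 and -0.74 in sham control hearts, 0.79 ± 0.27 (SE; limma adjusted p = 0.255). Nos2, the inducible nitric oxide synthase, was at -1.07 (adjusted p = 0.352). In other oxidant defence (22 rows, median -0.10), Ucp3, a mitochondrial carrier, was at -1.23 and Sesn2, a stress-induced sestrin, at 1.12 (adjusted p = 0.123 and 0.255). Other glutathione metabolism (16 rows, median -0.15) had Dpep1, a dipeptidase that acts in glutathione breakdown, at 0.75 and Ptges, a prostaglandin E synthase, at -0.62 (adjusted p = 0.26 and 0.384). Selenoproteins and methionine sulfoxide reductases (6 rows, median 0.05) had Selenok at -0.29 and Msrb3 at 0.44 (adjusted p = 0.675 and 0.636).

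Markers of the heart's other cells were read beside these values. For cardiomyocytes, only 13 of 31 rows were complete on 8 arrays. The mean level over these rows was 4.52 to 4.85 on infarcted and 4.71 to 5.19 on sham control arrays. The 18 tested cardiomyocyte rows had a median fold change of -0.14 (0.48 after quantile normalization). For fibroblasts the mean level over complete rows was 2.01 to 2.35 on infarcted and 2.04 to 2.38 on sham control arrays. For endothelium it was 1.42 to 1.87 on infarcted and 1.60 to 2.10 on sham control arrays, and for neutrophils 0.52 to 1.50 on infarcted and -0.07 to 0.88 on sham control arrays. In these lists 1 row passed, Ramp2 of endothelium at -3.05 (limma adjusted p = 0.01). Of 31 cardiomyocyte rows, those of Atp2a2, Mb, Myl3, Fabp3, Cox6a2, 1 of Actc1 and Tcap had no value on any sham control array (Tcap on no array), so bright heart genes were partly unmeasured there. Fewer cells of a type and less RNA per cell cannot be told apart in whole hearts.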

How the data were processed

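The deposited table held log2 values for 33600 rows on 8 arrays, hybridised in 2 colours per the labels. No source used here names the scanner software or says how background and poor spots were handled. Within each of 48 blocks of 700 rows, 2 to the power of the deposited log2 value times 1 constant per block and array gave whole numbers (tolerance 0.001) from 42 to 65466, so the authors' values are the signal of 1 channel over its block median. A ratio to the reference had been assumed in the design, and the same test was kept.

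Probes were named through the platform annotation: 18179 had 1 symbol, 87 several, and 15334 were not listed. All 85 members were found in a RefSeq gene table. Arrays were centred on their median, already 0. Rows with at least 3 values in each group were tested with limma 3.58.1 in R 4.3.3 (lmFit, eBayes), with Benjamini-Hochberg adjustment over 20561 rows and a threshold of 0.05; the procedure was tested on simulated data. Intervals are unadjusted. The highest correlation between 2 arrays of a group was 0.958, so no array was a copy of another in its group. Each array is a separate heart per the labels, which give no batch of any kind. The number of arrays limits precision.

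Members, lists and tests were chosen with earlier results of these data known. Named rows were those past the threshold, genes fixed by name (Gpx3, Gpx4, Prdx5 and Prdx6 not analysed here), the 3 lowest p of each of 11 role groups and the 2 lowest p of each further redox list; other members are given as counts or single fold changes. The 17 alternatives were leaving out each array, quantile and loess scaling, means over probes, filters, the replicate block, an intensity trend, and leaving out the 2 sham control arrays with the fewest values; another 2 were chosen after seeing the data.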

Additional observations from a re-analysis of the deposited data

Results flagged for a closer look

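In 4 of 111 groups of 4 arrays looked at, 1 array stood far from the other 3 by Dixon's test. These groups came from the 58 rows named by rule, 44 of them member rows. Chance alone gives about 1 in 20. All 4 were rows of the further redox genes, and none was among the member rows looked at. For Idh2 infarcted 1 was at 2.70, with the other infarcted arrays between 5.17 and 5.59. For Ucp3 infarcted 4 was at 0.13, with the others between 1.28 and 1.45. For Me1 infarcted 3 was at 2.46, with the others between 2.70 and 2.75. For Dpep1 sham control 2 was at 1.69, with the other sham control arrays between 0.86 and 0.95. Members given above only as single fold changes were not looked at, and arrays stood apart there too. For Txnrd3 infarcted 1 was at -0.62, with the others between 2.18 and 2.65. For Gstm5 infarcted 1 was at 2.07, with the others between 3.54 and 3.83. For Gstm2 sham control 2 was at 4.37, with the others between 3.04 and 3.26.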

How the results depend on the processing

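The number of changed member rows, 0 with limma as reported, was 0 to 1 when single arrays were left out, the 1 being Sod1 without sham control 4. It was 1 among rows above the median spot (Gstp1, row 27285) and 3 without the 2 sham control arrays with the fewest values (Sod1, Txn1 and Gstp1, row 3785), and 0 in the remaining alternatives. The median of the members stayed between -0.30 and -0.05. The count over all rows, 157 (13 higher and 144 lower), was 3 to 732 when single arrays were left out, the extremes without infarcted 3 and without sham control 4. It was 35 with quantile normalization (5 higher, 30 lower), 101 with loess (20 higher, 81 lower), 99 with means over the probes of a gene, 250 above the median spot, 1225 without the 2 sham control arrays with the fewest values, and 482 with quantile normalization on those arrays. The count among further redox genes, 1, was 0 to 2 without single arrays, 0 with quantile normalization, also without sham control 4, with loess, and with rows complete on 8 arrays, where Fth1 is not tested. It was 3 above the median spot and 5 without the 2 sham control arrays. Prdx2 turned to 0.35 with quantile normalization, 0.37 with loess, and 0.41 and 0.66 with quantile normalization without sham control 4 or without both sparse sham control arrays. In the same order, Sod2 turned to 0.37, 0.36, 0.35 and 0.52 and Prdx1 to 0.25, 0.23, 0.17 and 0.17. Glrx3 (row 21941) turned to 0.19, 0.23, 0.16 and 0.17. Among other rows that changed sign, Mgst3 turned to 0.16, 0.16, 0.12 and 0.21 and Gstm1 to 0.04, 0.04, 0.06 and 0.14. The cause was not tested. With the replicate number as a block, 1 row of all 20561 passed, 0 members and 0 further redox genes. Arrays of the same number had correlated deviations of 0.0283, 0.3, -0.0828 and -0.182, beside -0.226 to 0.301 for arrays of unlike number. With so few arrays these values do not settle whether the numbers pair the samples, and the main test treated the samples as unpaired.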
